A study of Mus musculus with 2 samples.

Results

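Emx1, Emx2, Dlx1, Dlx2, Dlx5, Dlx6, Six3, Neurod6 and Bcl11b are transcription factor genes best known for laying out the regions of the forebrain, and here their chromatin was read in cerebellum. They are 9 of the 21670 genes that code for protein on the autosomes and the X chromosome. The genes were chosen from an earlier account of these same libraries, because their promoters were accessible in replicate 2 and mostly not in replicate 1. The presence and value of their promoter peaks is therefore a description of the choice, and no count below is a test. All peaks at their coding starts, in their gene bodies and in the 50 kb on each side were then read out gene by gene.

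DNase-seq maps accessible chromatin by sequencing the ends of DNA fragments cut by the nuclease DNase I in nuclei. Both libraries came from cerebellum taken at 4 days of age from males of the strain B6CASTF1/J, a first-generation cross. Each was made from 3 males and has its own tissue sample in the labels, where they are numbered biological replicates 1 and 2. Both carry the same donor entry, so the labels do not settle how separate the animals behind them were. There was 1 group, with no treatment and no second genotype, so each difference described is one between 2 libraries of the same kind. Whole tissue mixes cell types, and fewer cells of a type cannot be told apart from less accessible chromatin in each cell.

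Emx1 and Emx2 are homeobox genes of the dorsal telencephalon (the pallium), which gives rise to the cerebral cortex and hippocampus. Neurod6 is a basic helix-loop-helix gene of the excitatory neurons made there, and Bcl11b, which encodes the zinc finger protein CTIP2, marks deep-layer cortical projection neurons and striatal neurons. The Dlx genes are homeobox genes of the ventral telencephalon (the subpallium), where they act in the development of GABAergic neurons, and they lie in convergent pairs, Dlx1 with Dlx2 and Dlx5 with Dlx6. Six3 is a homeobox gene of the anterior neural plate, needed for forebrain and eye formation. An accessible promoter is not the same as a transcribed gene, and RNA was not analysed here.

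Coordinates are those of the mouse assembly mm10 (GRCm38), and sequences were read from the RefSeq copy of that assembly on the strand of the named gene. The sequences below are the strongest replicate 2 peaks at member promoters, shown because the promoters of Emx1, Dlx5, Dlx6 and Six3 had a peak in replicate 2 alone, with that of Bcl11b, found in both libraries, for comparison. For Emx1 and Dlx5 only the part upstream of the annotated transcript is given, and Emx2, Dlx1, Dlx2 and Neurod6 are not shown because their peaks lie wholly or mostly in transcribed leader sequence. Capitals mark CCAAT boxes (CCAAT, either strand) and the cyclic AMP response element TGACGTCA, 2 motifs chosen after the sequences had been seen.
Emx1 promoter, plus strand, chr6:85187341-85187437: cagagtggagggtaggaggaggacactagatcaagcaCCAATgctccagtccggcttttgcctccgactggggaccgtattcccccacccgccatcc
Dlx5 promoter, minus strand, chr6:6882086-6882200: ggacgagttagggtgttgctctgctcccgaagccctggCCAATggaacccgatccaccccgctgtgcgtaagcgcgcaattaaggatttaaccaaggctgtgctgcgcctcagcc
Dlx6 promoter, plus strand, chr6:6862801-6863040: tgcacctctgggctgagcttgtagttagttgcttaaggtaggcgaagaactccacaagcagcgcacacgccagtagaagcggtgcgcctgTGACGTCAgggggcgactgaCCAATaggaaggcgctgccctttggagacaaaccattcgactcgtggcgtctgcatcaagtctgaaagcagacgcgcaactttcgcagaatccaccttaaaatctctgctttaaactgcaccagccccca
Six3 promoter, plus strand, chr17:85620654-85620825: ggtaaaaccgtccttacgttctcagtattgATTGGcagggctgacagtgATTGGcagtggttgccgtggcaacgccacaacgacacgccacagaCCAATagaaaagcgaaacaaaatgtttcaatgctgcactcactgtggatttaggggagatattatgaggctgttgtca
Bcl11b promoter, minus strand, chr12:108004061-108004180: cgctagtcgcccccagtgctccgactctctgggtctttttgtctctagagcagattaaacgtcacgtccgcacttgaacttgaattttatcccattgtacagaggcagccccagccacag

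The next sequences are the strongest peaks away from coding starts in 4 of the loci. They are shown as the counterpart of the promoters, because both libraries had a peak at each. Capitals mark the core of the motif bound by the chromatin architecture protein CTCF (CCA, AG and GGC with 2 letters of any kind between each, either strand, also chosen after the data had been seen) and, once in the Emx1 site, a CCAAT box.
Emx1 locus, plus strand, chr6:85154081-85154240: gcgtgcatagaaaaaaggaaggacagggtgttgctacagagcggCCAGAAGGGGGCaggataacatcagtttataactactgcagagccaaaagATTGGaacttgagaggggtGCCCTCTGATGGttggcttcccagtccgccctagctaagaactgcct
Emx2 locus, plus strand, chr19:59418121-59418320: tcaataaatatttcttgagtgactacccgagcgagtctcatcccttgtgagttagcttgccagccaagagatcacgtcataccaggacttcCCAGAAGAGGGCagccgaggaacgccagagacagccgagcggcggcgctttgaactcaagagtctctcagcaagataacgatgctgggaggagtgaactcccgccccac
Dlx1 and Dlx2 locus, plus strand, chr2:71547944-71548100: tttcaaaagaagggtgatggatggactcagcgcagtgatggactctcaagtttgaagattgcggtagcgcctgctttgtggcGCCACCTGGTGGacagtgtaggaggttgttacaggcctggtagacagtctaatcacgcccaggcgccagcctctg
Dlx5 and Dlx6 locus, minus strand, chr6:6885041-6885200: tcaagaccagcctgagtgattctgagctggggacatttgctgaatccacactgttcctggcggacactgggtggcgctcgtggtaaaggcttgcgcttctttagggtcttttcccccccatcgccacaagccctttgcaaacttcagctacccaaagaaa

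Each value below is the signal that the authors' peak files give for a peak, normalised by the authors by a factor that is not stated. A promoter peak is one that overlaps the 500 bp on either side of a start of a protein-coding transcript, and a gene's promoter value is that of its strongest such peak. Intervals given with a value are exact 95% Poisson intervals. They hold if 1 step of the values stands for 1 counted cut, and they cover counting error only. The authors deposited 2 peak lists for each library, and the less strict one is used unless the stricter one is named.

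Replicate 2 had a promoter peak at 9 of the 9 genes and replicate 1 at 2 of them, Emx2 and Bcl11b. Over all protein-coding genes the shares were 65% in replicate 2 and 59.9% in replicate 1, and 58.9% had one in each of the libraries. A promoter peak in replicate 2 alone was found at 7 of the 9 genes and at 6.1% of all genes, and one in replicate 1 alone at 0 of the 9 and at 0.974% of all genes. These counts follow from how the genes were chosen and carry no test. Among the 4108 protein-coding genes whose replicate 2 promoter value lay within the range of the 9 genes, 88.2% also had a promoter peak in replicate 1.

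**Figure D1:**
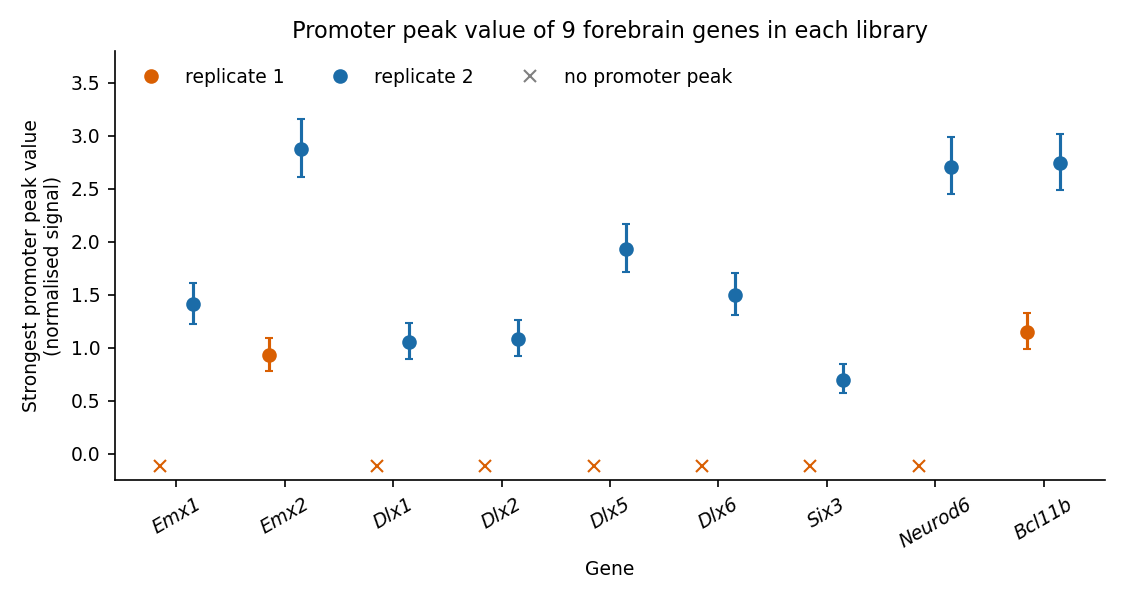
Strongest promoter peak value (normalised signal, vertical axis) of each of the 9 genes in replicate 1 (orange) and replicate 2 (blue), with the 95% Poisson counting interval as the bar; a cross marks a promoter with no peak. Replicate 1 has values at Emx2 (0.929) and Bcl11b (1.15) and crosses at the other 7 genes, while the replicate 2 values run from 0.698 at Six3 to 2.87 at Emx2.

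Of the pallial genes, Emx1 had no promoter peak in replicate 1 and 1 of value 1.41 in replicate 2, with an interval of 1.23 to 1.61, over its single coding start. Neurod6 had no promoter peak in replicate 1 and 2 in replicate 2, with values of 2.71 (interval 2.45 to 2.98) at the start and 0.426 upstream of it. The stronger Neurod6 peak ranked 20th among the 1321 genes with a promoter peak in replicate 2 alone, and Emx1 ranked 123rd.

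Emx2 has 2 coding starts, and the libraries differed between them. At the upstream start, replicate 2 had a peak of 2.87 (interval 2.61 to 3.16) at chr19:59458481-59458700, where replicate 1 had none. At the downstream start both libraries had a peak, at 0.929 in replicate 1 (interval 0.783 to 1.09) and 0.798 in replicate 2. That is a log2 difference, replicate 2 minus replicate 1, of -0.22. Replicate 1 had another peak, of 0.516, in the Emx2 intron at chr19:59459901-59459960, where replicate 2 had none. Emx2 therefore counts as present in both libraries through its downstream start alone.

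Bcl11b had the same promoter peak in both libraries, of 1.15 in replicate 1 (interval 0.986 to 1.33) and 2.74 in replicate 2 (interval 2.48 to 3.02). The intervals did not overlap, and the log2 difference was 1.26. Over the 12774 genes whose promoters had a peak in each library the median log2 difference was 1.02, with an SD of 0.60 across genes, so the Bcl11b difference was an ordinary one for such promoters.

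The subpallial Dlx genes had no promoter peak in replicate 1. In replicate 2 the Dlx1 value was 1.05 (interval 0.894 to 1.23) and that of its partner Dlx2 was 1.08 (interval 0.918 to 1.26). The Dlx5 value was 1.93 (interval 1.71 to 2.16) and that of its partner Dlx6 was 1.50 (interval 1.31 to 1.71). The intervals of Dlx1 and Dlx2 overlapped, and those of Dlx5 and Dlx6 did not, with Dlx5 the higher. Both members of the Dlx5 and Dlx6 pair lay above both members of the Dlx1 and Dlx2 pair.

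Six3 had the lowest promoter value of the 9 genes in replicate 2, 0.698 (interval 0.571 to 0.846), and no promoter peak in replicate 1. The peak lay 9 bp from a coding start inside the gene, with its centre 7132 bp downstream of the most upstream start, at which neither library had a peak. Among the 1321 genes with a promoter peak in replicate 2 alone, Six3 ranked 501st, Dlx1 247th, Dlx2 225th, Dlx6 106th and Dlx5 55th.

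The stricter peak list kept promoter peaks of 6 of the genes in replicate 2, with 60.8% of all genes, and of 1 gene in replicate 1, with 52.7%. Dlx1, Dlx2 and Six3 were not in the stricter list of replicate 2, and in replicate 1 Emx2 was the gene kept. In replicate 2 the lowest false discovery rate that the authors gave in the promoter windows was 0.0132 at Dlx1, 0.0265 at Dlx2 and 0.00317 at Six3. The rate was 6.97e-29 at Neurod6 and 1.15e-14 at Emx2. When replicate 2 was reduced to its strongest 61744 peaks, as many as replicate 1 has, the counts stayed at 9 and 2 genes, beside 58.8% of all genes in replicate 2. That reduction kept peaks down to 0.665, just below the Six3 value, and left 2.51% of all genes with a promoter peak in replicate 2 alone.

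The intervals and footprints that the authors called from the same cuts were compared at the 7 promoters with no peak in replicate 1. Replicate 1 had 0 bases under an interval with a false discovery rate below 0.05 in the promoter windows of these 7 genes, and 0 footprints, the short protected stretches that the authors call within accessible sites. Among the 1321 genes with a promoter peak in replicate 2 alone, 11.7% held such an interval in replicate 1. In replicate 2 the same windows held from 101 bases at Dlx2 to 518 bases at Neurod6 under such intervals, and from 1 footprint at Dlx2 to 4 at Neurod6. Both readouts come from the same reads as the peaks and are not independent of them.

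The 500 bp limit bears on which genes count as present in both libraries. Just inside it lay the Bcl11b peak, 452 bp from a start in replicate 1 and 459 bp in replicate 2, and the weaker Neurod6 peak at 470 bp. Just outside it lay a Dlx1 peak of 1.46 in the transcribed region at 503 bp, in replicate 2 alone, and an Emx2 peak of 1.61 at 752 bp, also in replicate 2 alone. Farther out, 1190 bp from the start of Dlx2, lay a peak that both libraries had. With a 2000 bp limit 3 of the genes were present in both libraries and 6 in replicate 2 alone.

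The 9 genes occupy 7 distinct loci, since each Dlx pair shares one. Replicate 1 had 43 peaks in these loci and replicate 2 had 79, of which 20 were shared. The shared peaks were 46.5% of those of replicate 1 and 25.3% of those of replicate 2 (exact 95% binomial interval 16.2% to 36.4%, which treats peaks as independent). Over all peaks the shares were 71.2% of replicate 1 and 33.4% of replicate 2. These shares include the promoter peaks by which the genes were chosen. Over 500 bp from any coding start, replicate 1 had 39 peaks in the loci and replicate 2 had 67, of which 17 were shared. That is 25.4% of those of replicate 2, against 24.6% of all its peaks at that distance, so away from the promoters the shared part was near the background. For replicate 1 it is 43.6%, against 63%. With the promoter peaks included, the stricter list and equal numbers of peaks gave different comparisons. In the stricter list 38.1% of replicate 2 peaks in the loci were shared against 34.9% of all, and with equal numbers of peaks it was 35.7% against 60.4%.

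**Figure D2:**
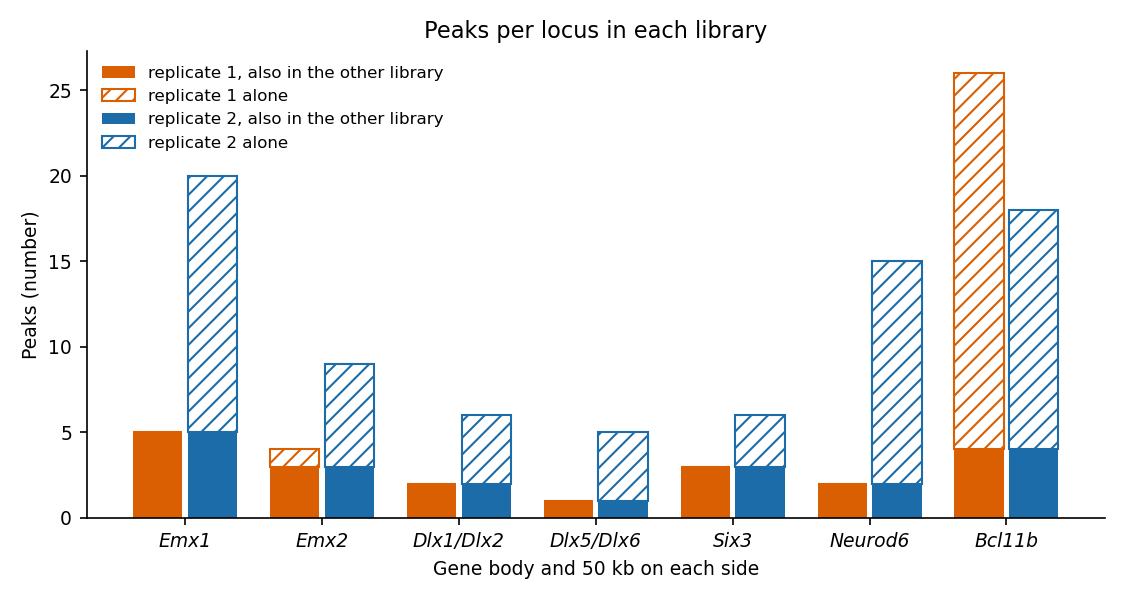
Number of peaks (vertical axis) in the gene body and 50 kb on each side of each locus, in replicate 1 (orange) and replicate 2 (blue), split into peaks also found in the other library (filled) and peaks of that library alone (hatched). Replicate 2 has more peaks than replicate 1 at 6 loci, and at Bcl11b replicate 1 has 26 peaks against 18.

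Over 500 bp from coding starts, 2 of the 17 shared peaks of replicate 2 in the loci (11.8%) had their centre in a protein-coding gene, against 48.1% of all shared peaks at that distance. For the 50 peaks of replicate 2 alone the number was 26 (52%, against 48.4%), of which 12 lay in Bcl11b introns. Most of each locus is flank, though by a small margin at Bcl11b, so the shares over all peaks are not a like background. Replicate 1 had no peak in the gene bodies of Emx1, Dlx1, Dlx2, Dlx5, Dlx6, Six3 or Neurod6. Replicate 2 had 5 in the body of Emx1, 3 in that of Neurod6, 2 each in those of Dlx1, Dlx5 and Six3, 1 in that of Dlx2 and 0 in that of Dlx6. These gene body counts include promoter peaks by which the genes were chosen, and the 1 at Dlx2 is such a peak.

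**Figure D3:**
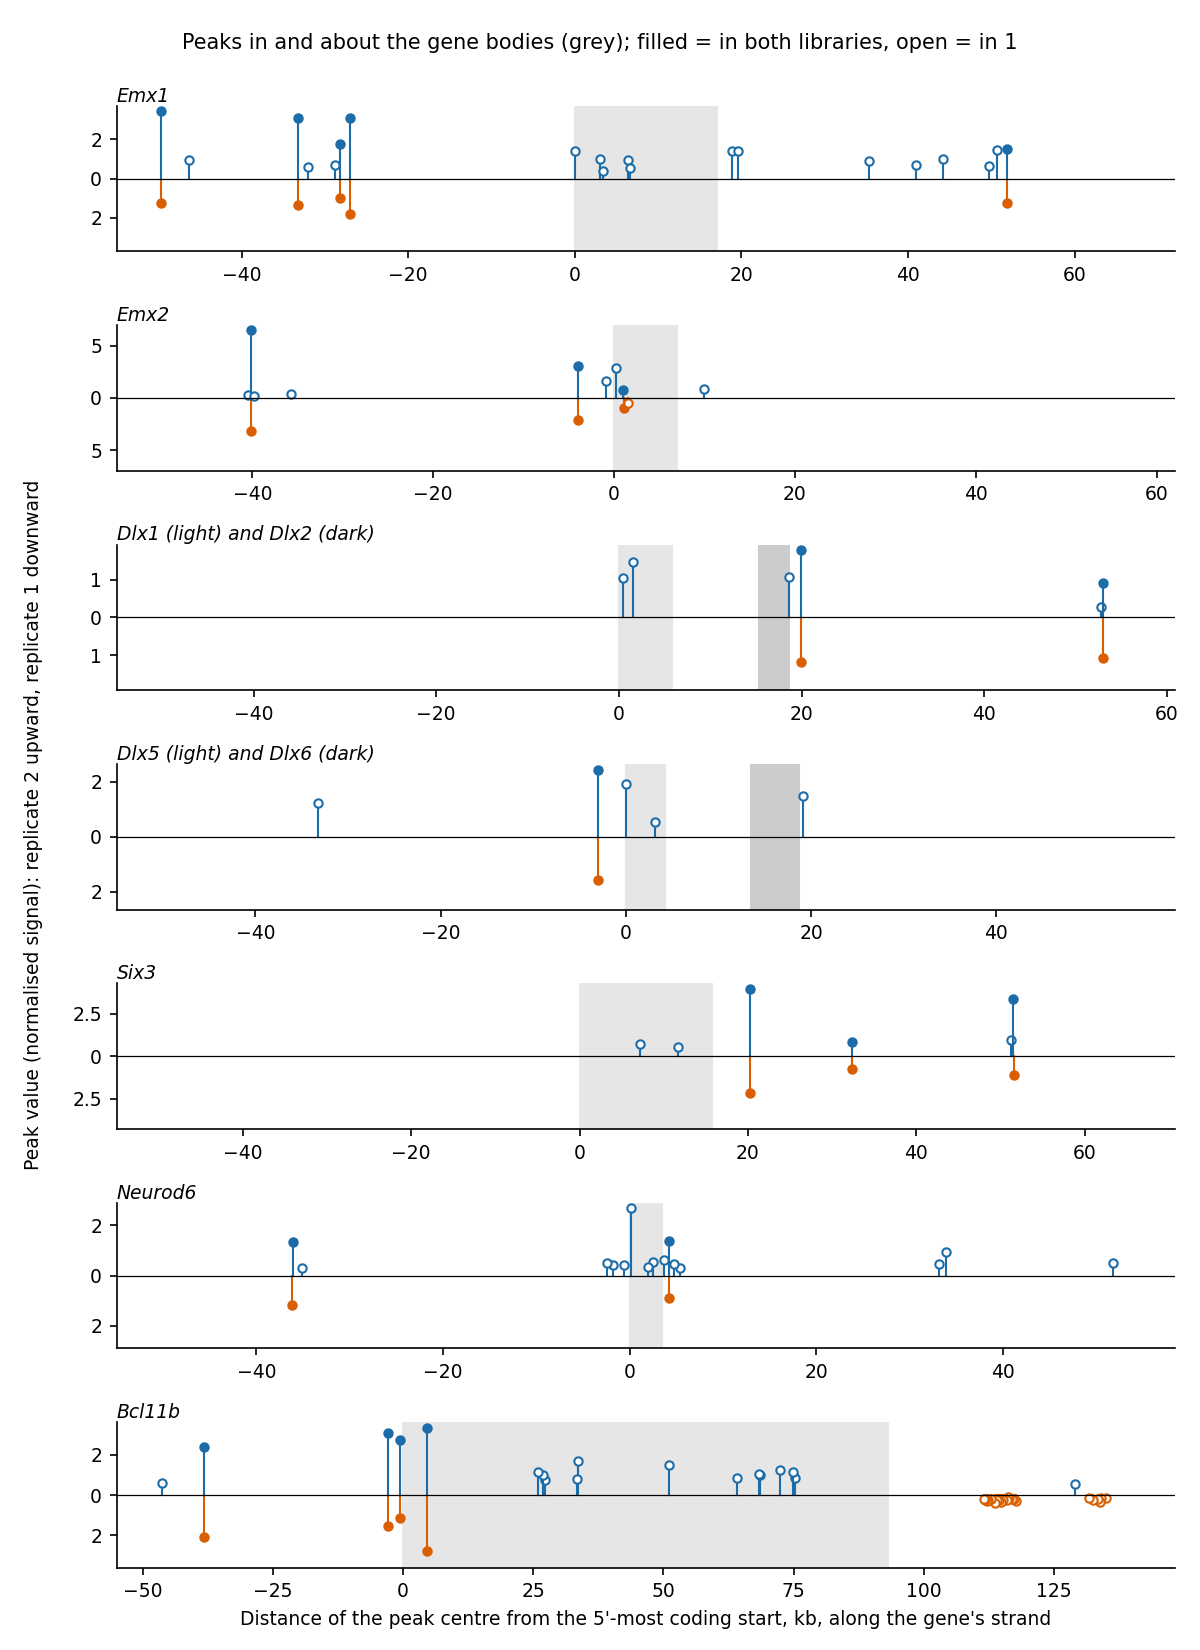
Peaks of each locus by distance (kb, horizontal axis) of the peak centre from the most upstream coding start of the named gene, with peak value (normalised signal) upward for replicate 2 and downward for replicate 1; filled circles are in both libraries, open circles in 1, and grey marks the gene bodies. The downward stems of replicate 1 stand outside the grey gene bodies except at Emx2 and Bcl11b, and a group of short open replicate 1 stems stands beyond the end of Bcl11b.

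At Emx1, replicate 1 had 5 peaks and replicate 2 had the same 5 and 15 more. The shared peaks were 4 upstream and 1 in an intron of the downstream neighbour Sfxn5, a mitochondrial carrier gene. The most distant upstream one lay at the coding start of Spr, the sepiapterin reductase gene, at 1.23 in replicate 1 and 3.46 in replicate 2. The others upstream had values of 1.34 and 3.12 (the sequence printed above), 1.00 and 1.75, and 1.83 and 3.08. In replicate 2 alone, besides the promoter, 3 peaks of 0.572 to 0.938 lay upstream, 4 peaks of 0.392 to 1.00 lay in the gene body and 2 of 1.42 and 1.40 lay beyond its end, the nearer at 1.80 kb. Another 5 of 0.625 to 1.46 lay in Sfxn5 introns. As many peaks in replicate 2 alone were found about 6.99% of all protein-coding genes, a number that, like those for the loci below, includes the promoter peaks.

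At Emx2, replicate 1 had 4 peaks and replicate 2 had 9, with 3 shared. The strongest peak of all 7 loci in both libraries was here, 40052 bp upstream of the gene at the CTCF core site printed above, reaching 3.19 in replicate 1 and 6.47 in replicate 2. The other shared distal peak lay in an intron of the antisense transcript Emx2os, 3872 bp upstream, with values of 2.12 and 3.07. Replicate 2 alone had a peak of 1.61 closer to the gene in Emx2os, 1 of 0.891 beyond the end of the gene, and 3 weak ones of 0.233 to 0.339 around the upstream site. As many peaks in replicate 2 alone were found about 48% of all genes, so the number at Emx2 was not unusual.

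At Neurod6, replicate 1 had 2 peaks and replicate 2 had 15. The shared peaks lay 4103 bp from the start just beyond the end of the gene, at 0.910 in replicate 1 and 1.38 in replicate 2, and 36058 bp upstream, at 1.17 and 1.32. The 13 peaks of replicate 2 alone had values of 0.299 to 2.71, and 9 of them lay within 5323 bp of the start. Both the 13 and the 9 include the 2 promoter peaks. About 10.5% of all genes had as many peaks in replicate 2 alone. Without the promoter peaks, whose absence from replicate 1 was a reason for choosing the gene, 2 of 13 replicate 2 peaks were shared (15.4%). At Emx1 it was 4 of 18 without peaks near coding starts and at Bcl11b 3 of 17. These were the loci with the lowest shares, beside 24.6% of all replicate 2 peaks at that distance. The others were above that share, with 2 of 7 at Emx2 and 1 of 3 at Dlx5 and Dlx6. It was 2 of 4 at Dlx1 and Dlx2 and 3 of 5 at Six3.

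At Bcl11b the difference ran both ways. In the gene body, replicate 2 had 13 peaks, and 12 of them, all intronic with values of 0.732 to 1.66, were in replicate 2 alone. The exception was a strong intronic peak 4394 bp from the start that both libraries had, at 2.75 in replicate 1 and 3.30 in replicate 2. Upstream lay 2 more shared peaks, at 1.51 and 3.05 (2759 bp from the start) and at 2.08 and 2.37 (38099 bp). The whole locus held 14 peaks of replicate 2 alone, and 8.49% of all genes had as many.

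Beyond the end of Bcl11b, replicate 1 had 22 peaks that replicate 2 lacked, in 2 runs. The nearer run, chr12:107885721-107892137, held 16 peaks within 6.42 kb, and the farther one, chr12:107868541-107871820, held 6 within 3.28 kb. Their values were low, 0.0968 to 0.413 with a median of 0.229, although 18 of the 22 were also in the stricter list. Over all peaks of replicate 1 alone the median value was 0.323 and 41.4% were in the stricter list. A footprint overlapped 10 of the 22. Replicate 2 had no peak and no interval with a false discovery rate below 0.05 in either run. As many peaks in replicate 1 alone were found about 1.12% of all genes. Outside the Bcl11b locus, 16 of the 17 replicate 1 peaks were shared, and the 1 left was the weak Emx2 intron peak.

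At Dlx1 and Dlx2, replicate 1 had 2 peaks and replicate 2 had 6. The shared ones were the CTCF core site printed above, 1190 bp upstream of Dlx2, at 1.18 in replicate 1 and 1.78 in replicate 2, and a site 34307 bp upstream of Dlx2, with values of 1.08 and 0.918. At Dlx5 and Dlx6, replicate 1 had a single peak, the site printed above 2956 bp upstream of Dlx5, with values of 1.58 and 2.45 in replicates 1 and 2. Replicate 2 had 4 more there, the promoters of both genes, a Dlx5 intron peak of 0.552 and a peak of 1.24 that lies 33196 bp upstream of Dlx5. The stretches between the genes of each pair, which are known to hold conserved forebrain enhancers, were empty in both libraries. The 9426 bp between Dlx1 and Dlx2 and the 9236 bp between Dlx6 and Dlx5 held 0 peaks of either list, 0 footprints and 0 intervals with a false discovery rate below 0.05. The 4 peaks of replicate 2 alone at each pair were an ordinary number, reached or passed about 67.4% of all genes.

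At Six3, replicate 1 had 3 peaks and replicate 2 had 6, which include the same 3. All 3 shared peaks lay downstream of the gene. Their values were 2.15 in replicate 1 and 3.98 in replicate 2 at chr17:85633741-85633900, 0.735 and 0.865 at chr17:85645821-85646021, and 1.08 and 3.34 at chr17:85665061-85665240. Replicate 2 alone had the promoter peak, 1 of 0.552 in an exon and 1 of 0.971 beside the most distant shared site. As many peaks in replicate 2 alone were found about 76.4% of all genes.

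The 20 shared peaks were higher in replicate 2 at 18 sites, the exceptions being the downstream Emx2 start and the site 34307 bp upstream of Dlx2. Their log2 difference, replicate 2 minus replicate 1, had a median of 0.62 and ran from -0.23 to 1.62. Over all 43923 shared peaks of replicate 2 the median was 0.61, and 79.3% were higher in replicate 2. The sites that both libraries had in these loci thus differed in value about as shared sites did elsewhere. The counting intervals of the libraries overlapped at 7 of the 20.

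**Figure D4:**
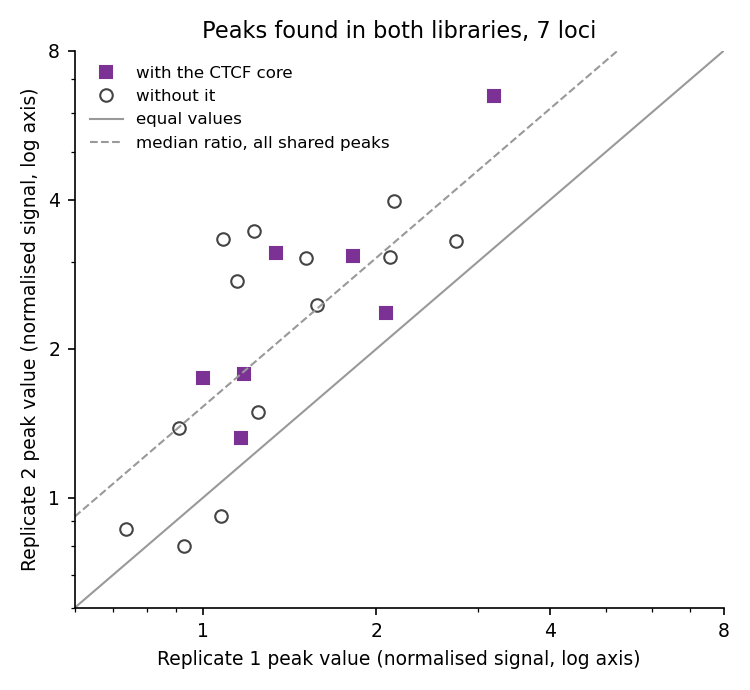
Peak value in replicate 1 (horizontal, log axis) against replicate 2 (vertical, log axis) for the 20 shared peaks of the 7 loci, with squares for peaks that hold the CTCF core; the solid line marks equal values and the dashed line the median ratio over all shared peaks, a log2 difference of 0.61. Of the points, 18 lie above the solid line, and the strongest in both libraries is the Emx2 upstream site at 3.19 and 6.47.

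The 50 peaks of replicate 2 alone in the loci that lay over 500 bp from coding starts had a median value of 0.762, against 0.459 over all such peaks. A footprint overlapped 44 of them (88%, against 70.8%), and 19 (38%, against 42.4%) were in the stricter list. With the promoter peaks there were 59 peaks of replicate 2 alone, and 1 of these overlapped a replicate 1 interval with a false discovery rate below 0.05.

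Motifs were counted in the peaks of the loci and in all peaks, with no test. In the central 200 bp, the CTCF core was present in 7 of the 18 shared peaks away from member starts (38.9%) and in 23.8% of all shared peaks away from coding starts. It was present in 2 of the 50 such peaks of replicate 2 alone (4%) and in 6.84% of all of them, so that the contrast between shared and unshared sites was also there over all peaks. It was present in 0 of the 11 replicate 2 promoter peaks and in 2.98% of all peaks near a coding start. The homeodomain core TAATTA, which proteins of the Emx and Dlx families can bind, was in 2 of the 50 peaks (4%, against 4.81%) and in 0 of the 18 shared ones (against 2.79%). The CCAAT box was present in 8 of the 11 promoter peaks of replicate 2, at Emx1, Emx2 (both peaks), Dlx1, Dlx2, Dlx6, Six3 (3 matches) and the weaker Neurod6 peak, and in 24.9% of all peaks near a coding start. The Dlx5 match printed above lies outside the central 200 bp. TGACGTCA was present in 2 of the 11 (18.2%, against 2.04%). The motifs marked in the printed sequences were chosen after the data had been seen. Other motifs were also counted in the 11 promoter peaks, beside all peaks near a coding start. The E-box was in 6 (54.5%, against 49.4%), and 2 narrower forms of it in 5 (45.5%, against 33.9%) and 3 (27.3%, against 17.4%). The GC box was in 4 (36.4%, against 50.5%). AP-1, Sox and NFI motifs were in 0 (against 1.84%, 2.75% and 0.0399%). A match is a description of the letters, and the number of peaks is small.

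Other forebrain regulators were counted in the same way. Of 15 other pallial genes, 10 had a promoter peak in replicate 1 and 13 in replicate 2. For 11 other subpallial genes the counts were 5 and 9, and for 7 of the anterior plate, eye and hypothalamus 0 and 3. Together that is 15 of 33 in replicate 1 and 25 of 33 in replicate 2, or 45.5% and 75.8%, beside 59.9% and 65% of all genes. With the stricter list it is 5 and 19. The strongest in replicate 2 were the corepressor gene Tle4 (6.41 in replicate 1 and 19.5 in replicate 2), Lhx2 (0.961 and 5.00) and Neurod2 (1.34 and 4.34) among the pallial genes. Among the subpallial genes Isl1 had values of 0.645 and 1.57, and Otx1 (1.66 in replicate 2 alone) led the anterior ones. Of the 25 with a peak in replicate 2, 14 also had one in replicate 1. The count for the 9 genes, 2 of 9, is not comparable with it, because they were chosen by this pattern.

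Regulators of more posterior regions were not distributed that way. Of 10 genes of the midbrain-hindbrain organiser, which patterns the cerebellum, 4 had a promoter peak in replicate 1 and 3 in replicate 2. Among them En2 had values of 1.46 and 1.06, and Spry1, a feedback inhibitor of FGF signalling, 3.92 and 6.25. Of 15 Hox genes of paralogue groups 1 to 5, expressed in the hindbrain and spinal cord, 9 had one in replicate 1 and 5 in replicate 2. The 5 with a peak in both had lower values in replicate 2, as at Hoxa4 (2.15 and 0.679) and Hoxb5 (1.95 and 1.56). With the stricter list the counts were 4 and 2 for the organiser genes and 3 and 2 for the Hox genes. The Hox counts thus differed little there. No test of the difference between these lists and the 9 genes was run.

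**Figure D5:**
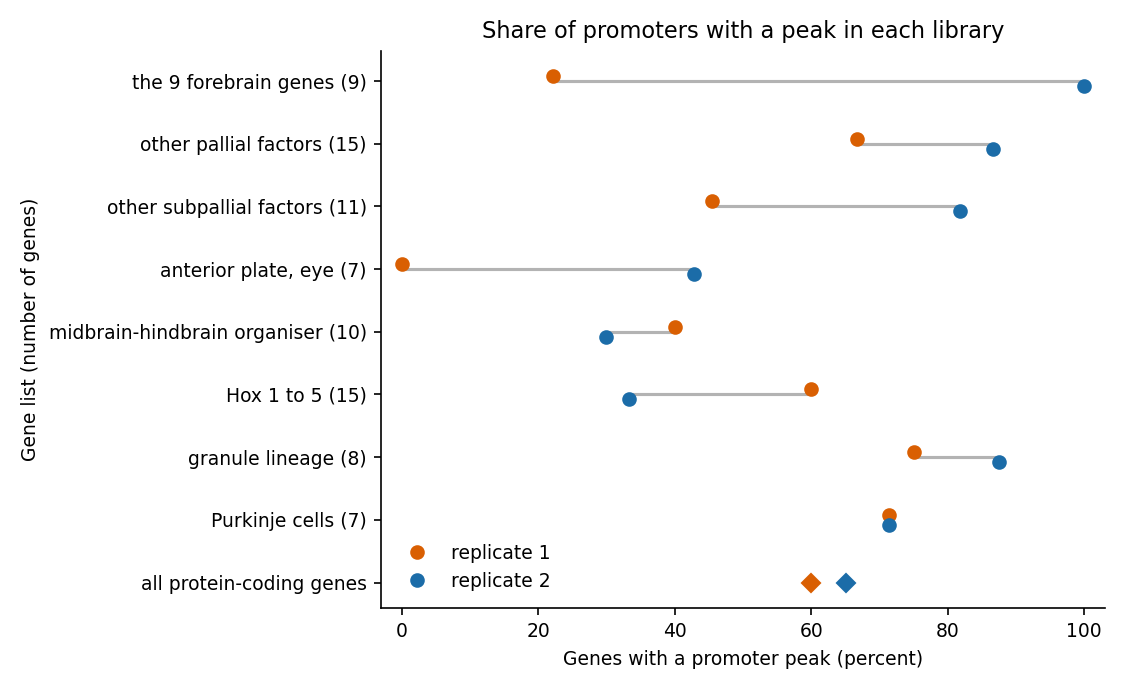
Share of genes with a promoter peak (percent, horizontal axis) in replicate 1 (orange) and replicate 2 (blue) for the 9 genes, the other gene lists (number of genes in brackets) and all protein-coding genes (diamonds). The 9 genes and the other forebrain lists lie further right in replicate 2, the organiser and Hox lists further left, and the Purkinje list at the same place in both.

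Markers of the tissue were present in both libraries, though not each marker in each. Of 8 granule lineage markers, 6 had a promoter peak in replicate 1 and 7 in replicate 2, with summed values of 9.73 and 15.9. Among them Cbln1 was at 3.03 and 5.90, Zic1 at 1.72 and 0.705, and Pax6 at 3.66 in replicate 2 alone, and over the 6 with a peak in both the median log2 difference was 0.07. Of 7 Purkinje cell markers 5 had one in each, with summed values of 6.66 and 16.2 and Itpr1 at 2.89 and 8.32. Pcp2, Skor2 and Barhl1 had none in either. Of 3 cerebellar region markers, En2 had a promoter peak in both (1.46 and 1.06), En1 in replicate 2 alone (0.718) and Gbx2 in replicate 1 alone (1.26). Their summed values were 2.73 and 1.78. Further lists were counted in the same way. Of 8 astrocyte and Bergmann glia markers 4 had a promoter peak in replicate 1 and 8 in replicate 2, with summed values of 6.08 and 14.8. Excluding the 9 genes, 3 of 5 genes listed as pallial excitatory neuron markers had one in replicate 1 and 5 in replicate 2. Their summed values were 2.90 and 8.86, of which Neurod2 gave 1.34 and 4.34, and Tbr1 and Slc17a7 had none in replicate 1. For the 3 GABAergic neuron markers left in the subpallial list the counts were 2 and 2, with summed values of 1.03 and 2.01. The peaks were those of Gad1 (0.368 and 1.12) and Gad2 (0.664 and 0.891), and Lhx6 had none in either library. Whether the genes of the pallial and subpallial lists mark forebrain cells alone was not tested, so their sums are not a measure of such cells. For 4 choroid plexus markers the counts were 0 and 1, and Ttr and Folr1 had none. The summed values were higher in replicate 2 for each of these lists except the region markers. Promoter values were higher in replicate 2 in general. Of the 12774 genes with a promoter peak in each library, 92.6% were higher there, with a median log2 difference of 1.02. The part of the cell mixture in the result was not tested.

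Replicate 2 also had more peaks in general, 131460 against 61744 on the autosomes and X, and more footprints, 261231 against 112201. The reads behind them are unknown. The part of this difference in the results above was not tested beyond the reduction to equal numbers of peaks.

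Genes whose pattern was most like that of the 9 were named by 2 measures, each over the 2 libraries. With no promoter peak in replicate 1, the strongest replicate 2 promoters were those of Slc4a7 (6.25), Mamstr (5.23), Ap1g2 (4.31), Kcnj9 (3.90) and Ddn (3.87), all above Neurod6. At Slc4a7 137 bases and at Kcnj9 7 bases of the promoter window lay under a replicate 1 interval with a false discovery rate below 0.05. The number was 0 at Mamstr, Ap1g2 and Ddn, as it was at the 7 genes. With at least 15 replicate 2 peaks in the locus, the lowest shares also in replicate 1 were those of Chst9 (0 of 24), Otx1 (0 of 23), Gria3 (0 of 17), Cpxm2 (0 of 16) and Slc15a5 (0 of 16). Otx1, a homeobox gene of the anterior brain, was in the list of other forebrain genes above.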

How the data were processed

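DNase-seq was measured in 2 libraries of P4 cerebellum, grouped by their labels. The authors deposited 2 peak lists per library, called on that library's alignments to mm10, per the deposited description files. No source used here names the aligner or the peak caller. The peak value is the signal column, normalised by the authors by a factor that is not stated, and 99.998% and 100% of values lay within 0.05 steps of whole multiples of 0.00645 and 0.00665 in replicates 1 and 2. The FDR files hold the authors' false discovery rates (q-values) of the cut rate under 0.05, and the deposited footprints carry a constant score of 0.01, so only their positions were used. Depth in reads is unknown.

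The genes, lists and motifs were chosen with earlier results of these data known. Genes came from GENCODE M21. Peaks overlapping by 1 bp were shared. With 1 group there was no test. Named besides the 9 genes are neighbours with a peak at their coding start or around it, the strongest and shared members of each list (some are not reported here), and the 5 genes most like them by each of 2 measures. Alternatives were the stricter list, other windows and flanks, the most upstream start, equal numbers of peaks, a stricter overlap and each library alone. Overlap code (Python 3.11.15, pandas 2.3.3, scipy 1.17.1, pysam 0.24.0, bedtools 2.31.1) was tested on simulated intervals.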

Additional observations from a re-analysis of the deposited data

How the results depend on the processing

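Of the 9 genes, 2 had a promoter peak in each library. This count was 1 with the stricter list, 1 with only the most upstream coding start, 3 with a 2000 bp window and 2 with equal numbers of peaks. Taking each library alone in turn, it was 2 for replicate 1 and 9 for replicate 2. The number in replicate 2 alone was 7, and 5 to 7 under the stricter list, a 2000 bp window, the most upstream start and equal numbers of peaks. The 79 replicate 2 peaks in the loci became 42 with the stricter list, 51 with flanks of 25 kb and 135 with 100 kb. The 43 replicate 1 peaks became 27 with flanks of 25 kb and 17 without the Bcl11b locus, an alternative chosen after seeing the data. The shared part of the replicate 2 peaks, 25.3%, became 38.1% with the stricter list and 35.7% with equal numbers of peaks, and was 19.6% to 26.2% under the other alternatives. Leaving out peaks near coding starts, also chosen after seeing the data, gave 39 and 67 peaks. The causes of these changes were not tested, other than that shorter flanks and a stricter list hold fewer peaks. No paired analysis was possible because there is 1 group. Without read totals, the depth at which replicate 1 would miss a peak of a given height is unknown.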
